A study of Rattus norvegicus with 2 samples.

Results

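The genes described here encode the proteins of the mitochondrial ribosome. They were taken as every gene listed in either library whose rat symbol begins with Mrpl or Mrps followed by a digit. Mrpl genes encode proteins of the large subunit and Mrps genes those of the small subunit, except that Mrps18a and Mrps30 are known as large-subunit proteins and are counted there. This gave 73 RefSeq identifiers of 9894 listed genes, under 72 symbols, because Mrps27 had 2 identifiers. The symbol came from the RefSeq accession for 70 identifiers and from the deposited description for Mrpl43, Mrps10 and Mrps28, and for Mrpl43 that description is a match to a mouse protein. The study compared mRNA of dissociated somatosensory cortical neurons from E16 Sprague-Dawley rat embryos. The control library came from cells electroporated with a plasmid carrying a scrambled siRNA and the RNAi library from cells electroporated with a plasmid against PIWIL1, a member of the PIWI family of proteins that bind piRNAs. In both groups the siRNA was in the pSuper vector, the medium was Neurobasal with fetal bovine serum and B27, and RNA was taken after 48 h. Which of the study's rat siRNAs was sequenced is not given in the sources used here, the level of Piwil1 itself was not analysed here, so the knockdown in these libraries was not checked, and the cultures hold electroporated and other cells together.

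The mitochondrial ribosome translates the small set of mRNAs made from mitochondrial DNA, all of which encode subunits of the respiratory chain and ATP synthase. Its rRNAs come from the mitochondrial genome, while its proteins come from nuclear genes, are made in the cytosol and are imported. Many have a counterpart in the bacterial ribosome and others are found only in mitochondria. Neurons rely heavily on oxidative phosphorylation, and inherited defects of several of these proteins cause disease of brain, heart or liver.

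Digital gene expression libraries were used, which represent a transcript by 21-base tags that start at its CATG sites. The copies of a gene's tags are its count, and TPM is the CPM of tags, which is that count scaled to the clean tags of the library, with no scaling to transcript length, so levels are compared between the libraries and not between genes. Tags on genes held 1947600 copies in the control library and 1865913 in the RNAi library. There was 1 library per group, so no difference below has a replicate check, and Fisher's exact test compares the 2 libraries and not the conditions. A gene was called lower or higher in the RNAi library at an adjusted p (FDR) of 0.05 or less and a log2 ratio of TPM, RNAi over control, of at least 0.58 in size. Intervals are exact at 95% and cover counting error only, since amplified copies are not independent molecules. Of the cell type markers, 6 of 7 for cortical neurons were listed (Bcl11b was not), with a summed level of 3524.5 TPM in the control and 2787 TPM in the RNAi library. Those of radial glia and progenitors (6 of 7 listed, Eomes not) summed to 1009 and 1302 TPM, most of it Vim (2674 and 3724 copies). The other 5 listed markers of this group were lower in the RNAi library, with 320 and 260 copies for Sox2, 181 and 125 for Nes, 138 and 110 for Fabp7, 83 and 68 for Pax6 and 22 and 15 for Hes5. Those of meninges and fibroblasts (4 of 4 listed) summed to 434 and 416 TPM, and the interneuron, astrocyte, oligodendrocyte, microglia, endothelium and erythrocyte lists each stayed under 50 TPM in both libraries. None of the markers was called, and their part in the results below was not tested. In RNA from a mixed culture, fewer cells of a type and less RNA per cell cannot be told apart.

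A gene's ratio here is the ratio of its tags, and tags with certain ends differed between the libraries in all genes. Among 16021 tags with at least 20 copies over both libraries, the median log2 ratio was -0.08. It was -0.67 for the 1500 tags ending in TG or GT and 1.39 for the 196 tags ending in a run of 8 or more A. The tags on which the called genes rest are therefore shown first, with the end by which a tag was classed in capitals, which is its last 2 bases or the run of A it ends in. Tags are numbered by CATG site, with site 1 nearest the 3' end. The most copied tags of Mrpl41, Mrpl40, Mrpl11 and Mrps12 ended in TG or GT.
Mrpl41 site 1: catgccttggattctgagtGT
Mrpl40 site 8: catgctggccctaggagtcTG
Mrpl11 site 1: catggcaacccgatttataGT
Mrps12 site 1: catgcgctgggatgggggtTG
The most copied tags of Mrps15, Mrps22, Mrps17 and Mrpl50 had other ends, and that of Mrpl35 ended in GG.
Mrps15 site 5: catgcagaaacatcgaaagGA
Mrps22 site 1: catgttaatgcccttccatTT
Mrps17 site 2: catgacgcccttcagcagtGC
Mrpl50 site 9: catggagcatcaacaaagAAA
Mrpl35 site 11: catgatcggacaaacctgcGG
Mrpl17, the most copied gene of the set, had a pair of tags that run into A after a short stretch of other bases, and tags from sites further from the 3' end.
Mrpl17 site 1: catgggacaccAAAAAAAAAA
Mrpl17 site 1, second tag: catgggacactAAAAAAAAAA
Mrpl17 site 2: catgcatttgcctcctgagTA
Mrpl17 site 3: catgctggacttgaactaaGA

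All 73 genes were listed in both libraries. Together they had 10639 copies in the control library (3141 TPM) and 10226 in the RNAi library (3096 TPM), a log2 ratio of -0.02 with an interval of -0.06 to 0.02. Without Mrpl17 that summed log2 ratio was -0.10, with an interval of -0.14 to -0.05. Over single genes the median log2 ratio was -0.08, with quartiles of -0.42 and 0.21, and 40 lay below 0 and 33 above. The median over all 8899 genes listed in both libraries was -0.09, so the typical gene of the set lay where the typical gene of the library lay. The exact interval lay below 0 for 21 of the genes, above 0 for 8, and included 0 for 44. Such intervals were not counted over all genes, of which 5041 had ratios below 0 and 3851 above. The 21 and 8 therefore show no excess over all genes.

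Of the 73 genes, 11 (15.1%) were called lower, against 5.97% of all genes, and 2 (2.74%) were called higher, against 2.96% of all genes. A gene needs copies to be called, and 59 of the 73 had at least 100 copies over both libraries. Of these 59, 9 (15.3%) were called lower and 1 higher, beside 8.46% and 4.62% of all genes with as many copies. After the ratio of each tag's end, estimated in other genes, was taken out of the copies, 8 were called lower and 1 higher, beside 3.71% and 1.79% of all genes. With edgeR's TMM or DESeq2's size factors in place of library totals, 9 were called lower and 2 higher. All genes gave 4.64% lower and 4.02% higher with TMM, and 4.80% and 3.86% with DESeq2's factors. Under these scalings the lower share of all calls moved from 66.9% to 53.6% and 55.4%.

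**Figure D1:**
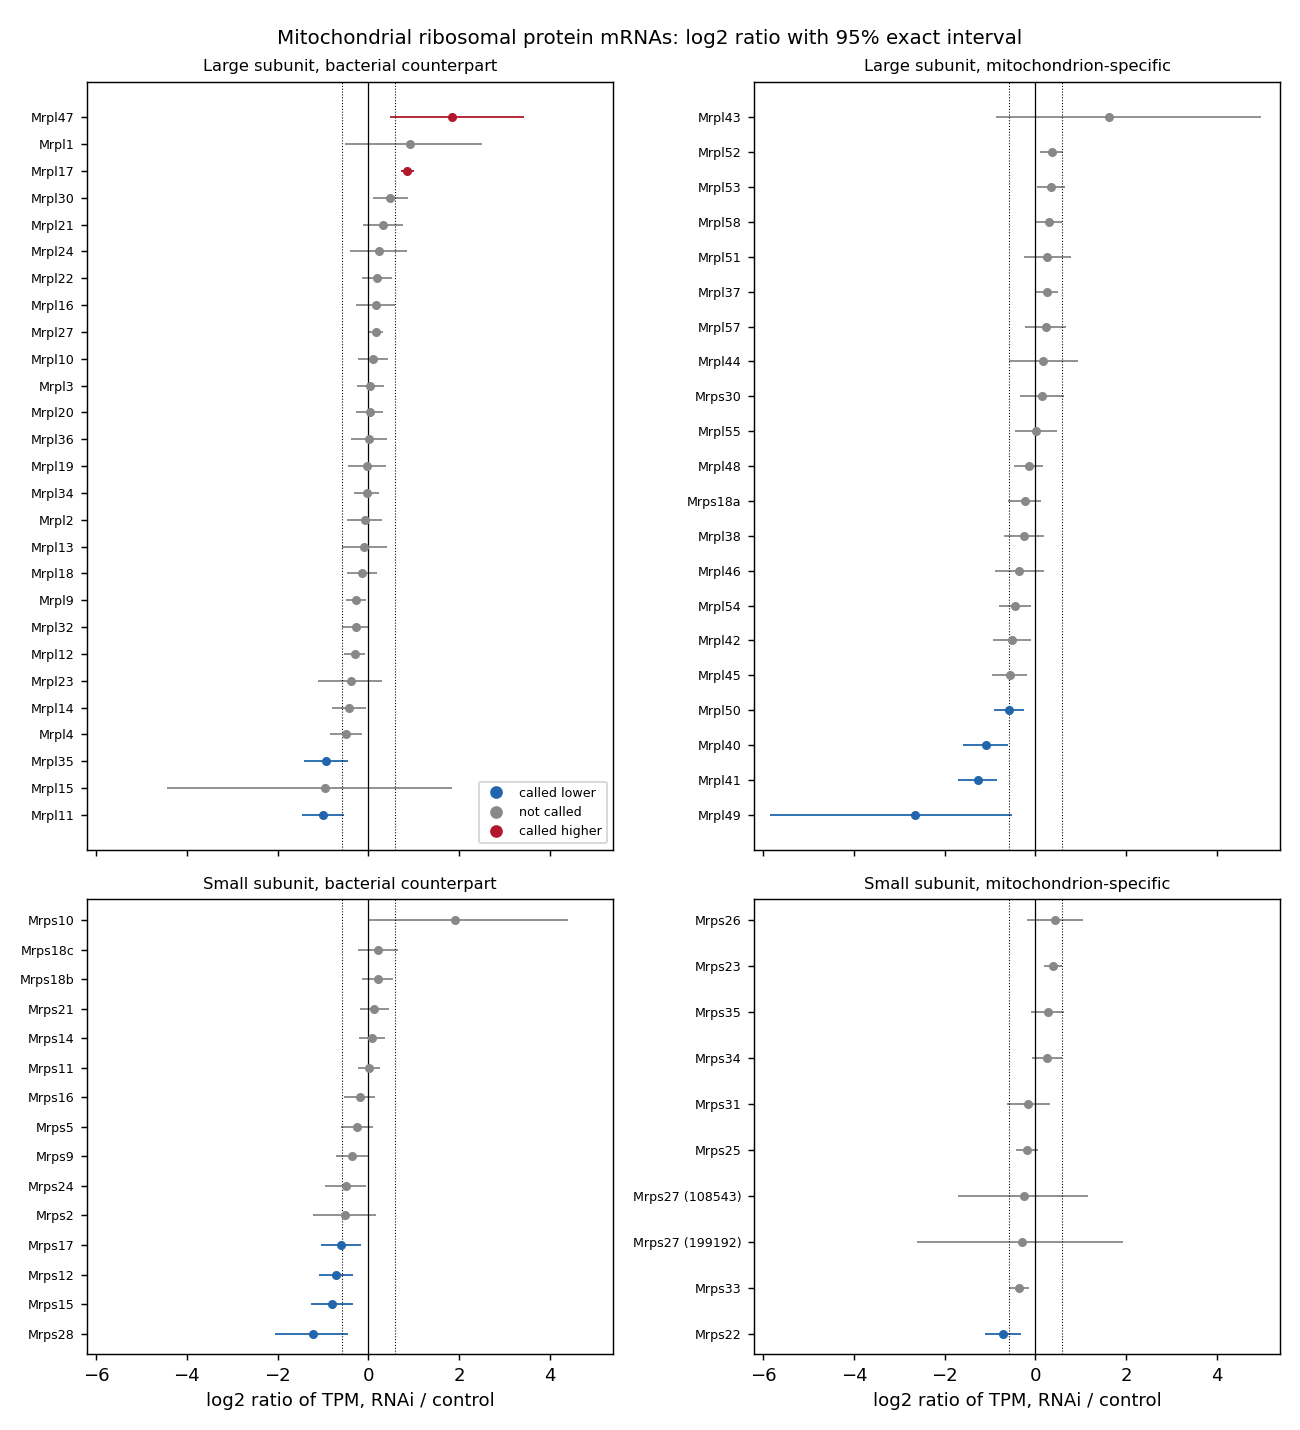
Log2 ratio of TPM, RNAi over control, for each of the 73 identifiers (points) with its 95% exact interval (bars), in 4 panels by subunit and by whether the protein has a bacterial counterpart. Dotted lines mark the threshold of 0.58 in either direction, the 11 blue genes were called lower and the 2 red genes higher, and the widest bars belong to genes with few copies.

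In the large subunit, 6 of 48 genes (12.5%) were called lower, beside 5.97% of all genes. Mrpl41, a mitochondrion-specific protein, had 162 copies in the control and 66 in the RNAi library (47.8 and 19.98 TPM). Its log2 ratio was -1.26 with an interval of -1.70 to -0.84 (adjusted p = 3.06e-08, Fisher's exact test). Both of its tags ended in GT, of which the site 1 tag is shown above. After the tag-end correction the log2 ratio of Mrpl41 was -0.66 and it was still called. Mrpl40, also mitochondrion-specific, had 112 and 51 copies (33.1 and 15.4 TPM). Its log2 ratio was -1.10 (adjusted p = 1.07e-04, Fisher's exact test), with 87.1% of its copies on tags ending in TG or GT, all of them on the site 8 tag (103 and 39 copies). After correction it was -0.66 and not called. Both were lower in the RNAi library, and most of their copies lay on tags of the class that was low in all genes.

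Mrpl11, the counterpart of the bacterial protein L11 at the base of the ribosomal stalk, had 126 and 62 copies (37.2 and 18.8 TPM), a log2 ratio of -0.99 (adjusted p = 1.66e-04, Fisher's exact test). Its tag at site 1 had 68 and 29 copies and that at site 3 had 35 and 16, both ending in GT, while the tag at site 2, ending in TC, had 23 and 17. All 3 tags were lower, the TC tag by the least, and after correction the gene's log2 ratio was -0.56. Mrpl35, the counterpart of L35, had 105 and 54 copies (31.0 and 16.4 TPM), a log2 ratio of -0.92 (adjusted p = 0.00202, Fisher's exact test). Its GG tag at site 11 had 75 and 22 copies, while its next most copied tag had 18 and 11, and tags ending in GG had a median log2 ratio of -0.55 over all genes. After correction Mrpl35 stood at -0.67 with an adjusted p of 0.0565 by Fisher's exact test. Neither gene was called after the correction.

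Mrpl50, a mitochondrion-specific protein, had 200 and 130 copies (59.1 and 39.4 TPM), a log2 ratio of -0.59 with an interval of -0.92 to -0.26 (adjusted p = 0.00612, Fisher's exact test). Its site 9 tag, which ends in 3 A, had 159 and 103 copies, and tags of that class had a median of 0.17 over all genes. The correction moved its log2 ratio to -0.75, further from 0. Mrpl49, mitochondrion-specific, rested on few copies, 13 in the control and 2 in the RNAi library (3.84 and 0.61 TPM), with a log2 ratio of -2.65, an interval of -5.85 to -0.52 and an adjusted p of 0.0469 by Fisher's exact test. Its 2 copies lie under the 3-copy floor of 0.908 TPM in the RNAi library. The call was lost after the correction, with the most copied tag only, and when a tag found in just one of the libraries was given 1 copy in the other, and it held in 7 of 17 alternatives.

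In the small subunit, 5 of 25 genes (20%) were called lower and none higher, beside 5.97% and 2.96% of all genes. Mrps12, the counterpart of S12 in the decoding centre, had 161 and 96 copies (47.5 and 29.1 TPM), a log2 ratio of -0.71 (adjusted p = 0.00247, Fisher's exact test). Its TG tag at site 1 had 111 and 48 copies, while its TT tag at site 2 had 42 and 41. The TG tag was lower and the TT tag nearly equal, and after correction the gene's log2 ratio was -0.35 and it was not called. Mrps15, the counterpart of the rRNA-binding protein S15, had 110 and 62 copies (32.5 and 18.8 TPM), a log2 ratio of -0.79 with an interval of -1.26 to -0.33 (adjusted p = 0.00726, Fisher's exact test). Its site 5 tag carried 90 and 52 of those copies.

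Mrps22, a mitochondrion-specific protein in which inherited mutations cause mitochondrial disease, had 146 and 87 copies (43.1 and 26.3 TPM). Its log2 ratio was -0.71 with an interval of -1.11 to -0.32 (adjusted p = 0.00411, Fisher's exact test). The tag at site 1 had 101 and 53 copies and that at site 2 had 41 and 32, both lower. Mrps17, the counterpart of the rRNA-binding protein S17, had 113 and 73 copies (33.4 and 22.1 TPM), a log2 ratio of -0.59 (adjusted p = 0.0497, Fisher's exact test), just inside both thresholds. Nearly all of its copies came from the site 2 tag, with 110 and 71. The corrected log2 ratios were -0.70 for Mrps15, -0.71 for Mrps22 and -0.82 for Mrps17, and all 3 were called with and without the correction. Mrps28, the counterpart of S1, had a single tag, with 48 and 20 copies (14.2 and 6.05 TPM), a log2 ratio of -1.23 (adjusted p = 0.0123, Fisher's exact test). After correction it was -1.06 with an adjusted p of 0.0531 by Fisher's exact test.

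Thus 5 genes, Mrpl41, Mrpl50, Mrps15, Mrps17 and Mrps22, were called lower both as deposited and after the correction. Of these, Mrpl50 and Mrps17 were not called with TMM or DESeq2's factors (log2 ratios of -0.49 for Mrpl50 and -0.50 for Mrps17 with TMM). Mrps17 was also not called without tags ending in runs of A or with 1 copy put back. The correction added Mrpl42, Mrpl45 and Mrpl54, all of the large subunit and mitochondrion-specific. Mrpl42 had 122 and 83 copies, a log2 ratio of -0.52 as deposited and -0.64 corrected. Mrpl45, which anchors the ribosome to the inner membrane, had 143 and 94 copies and log2 ratios of -0.57 and -0.58, so that it lay on either side of the threshold. Mrpl54 had 161 and 115 copies and log2 ratios of -0.45 and -0.59.

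**Figure D2:**
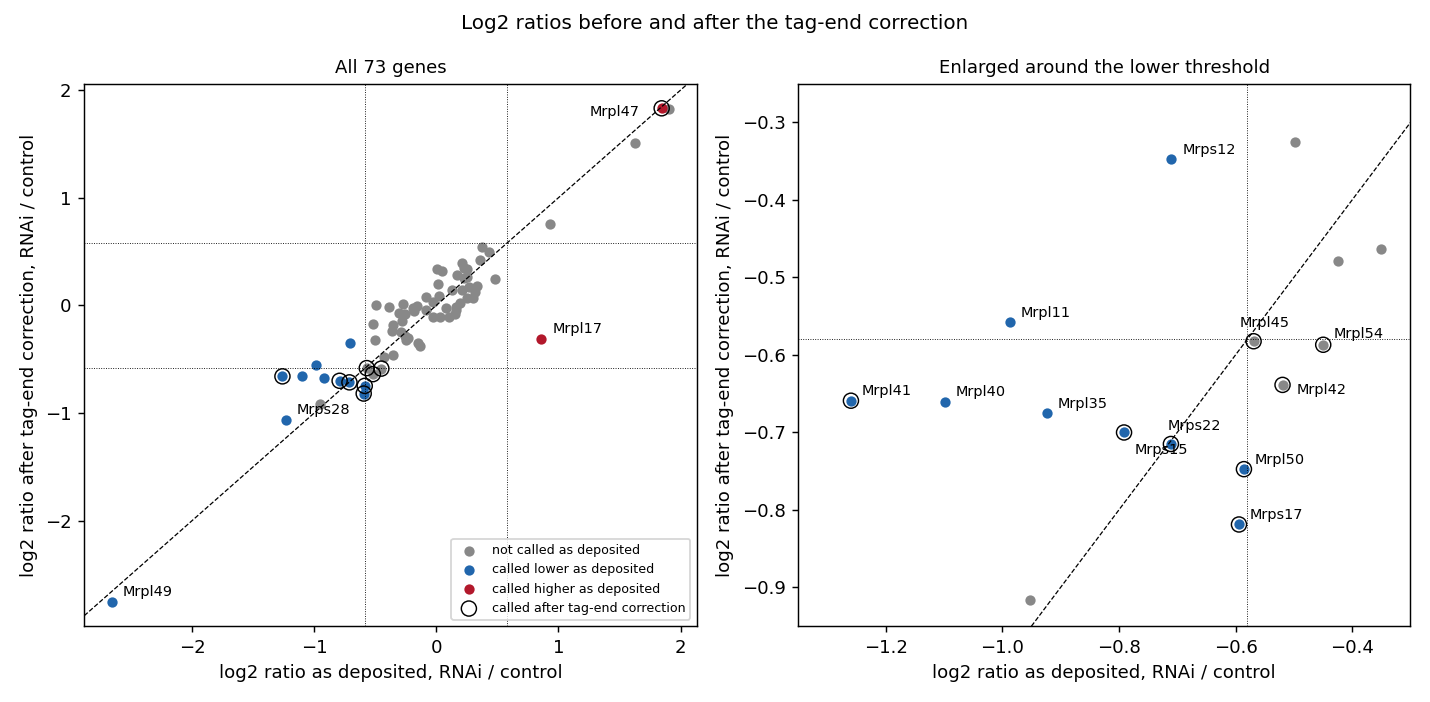
Log2 ratio of each of the 73 identifiers as deposited (horizontal) against the same after the tag-end correction (vertical), with the lower threshold enlarged on the right. Circles mark genes called after the correction, the dashed line marks equal values, dotted lines mark the threshold of 0.58, and Mrpl17 moves from 0.86 to -0.31.

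Both genes called higher were of the large subunit and have a bacterial counterpart. Mrpl17, the counterpart of L17, had 601 copies in the control and 1065 in the RNAi library (177 and 322 TPM). Its log2 ratio was 0.86 with an interval of 0.72 to 1.01 (adjusted p = 1.41e-32, Fisher's exact test). Of its copies, 83.9% lay on tags ending in runs of A. The first site 1 tag had 409 and 854 copies and the second, which differs from it by C11T counted from the tag's first base, had 39 and 91. The tags away from the run did not follow, with 63 and 63 copies at site 2, 47 and 24 at site 3 and 11 and 10 at site 4. Without its tags that end in a run of at least 8 A, Mrpl17 kept 153 and 116 copies and its log2 ratio was -0.36. After the tag-end correction the ratio was -0.31, so that its sign turned. Mrpl17 was not called lower under either.

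Mrpl47, the counterpart of L29 near the exit of the peptide tunnel, had 6 copies in the control and 21 in the RNAi library (1.77 and 6.36 TPM). Its log2 ratio was 1.85 with an interval of 0.49 to 3.44 (adjusted p = 0.0234, Fisher's exact test), and 1.83 after the correction. Its tags had 0 and 8 copies at site 1, 6 and 10 at site 4, and 0 and 3 at site 6. The call rests on few copies, and it was lost when a tag found in just one of the libraries was given 1 copy in the other.

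**Figure D3:**
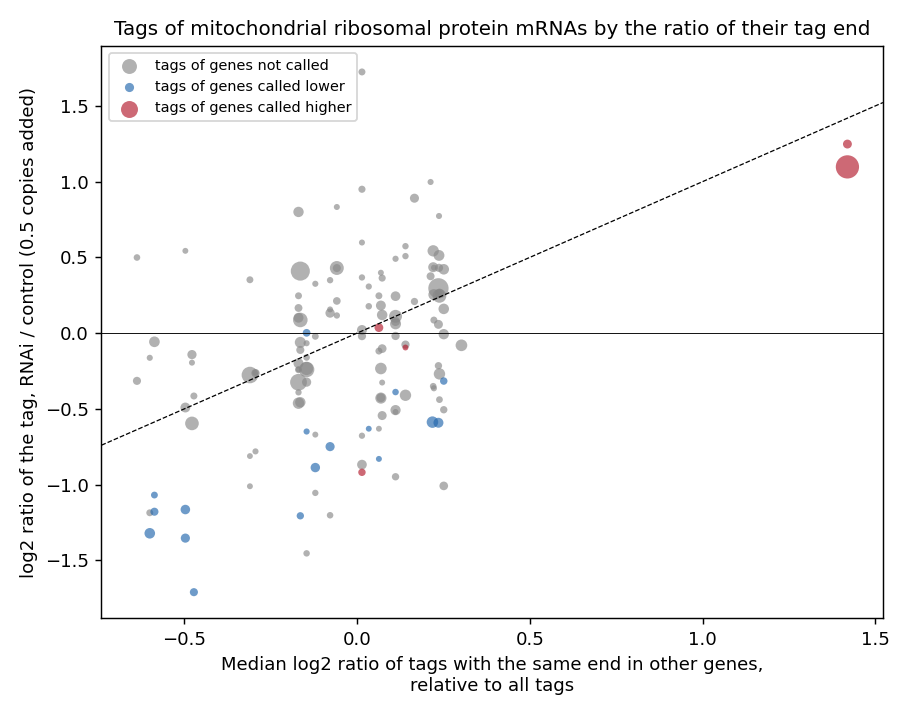
Log2 ratio of each of the 138 tags of mitochondrial ribosomal protein genes with at least 20 copies (vertical, 0.5 copies added) against the median of tags with the same end in other genes, relative to all tags (horizontal). Point area grows with copies, colours give the call of the gene, the dashed line marks equal values, and the 2 tags far to the right are the A-run tags of Mrpl17.

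Over the 138 tags of these genes with at least 20 copies, 78 were lower and 60 higher in the RNAi library, with a median log2 ratio of -0.09. The 12 ending in TG or GT had a median of -0.78 and 10 of them were lower. The 2 ending in runs of A had a median of 1.17. The other 124 had a median of -0.07, with 68 lower, beside -0.05 for such tags in all genes. In 7 of the genes, tags ending in TG or GT held over 50% of the copies, and 4 of these 7 were called lower (Mrpl11, Mrpl40, Mrpl41 and Mrps12). The other genes with mostly TG or GT tags were Mrps24 (104 and 72 copies, log2 ratio -0.49), Mrps2 (47 and 32 copies, -0.52) and Mrpl3 (191 and 192 copies, 0.04). The share called lower among all genes with mostly such tags was not counted, so 4 of 7 is not shown to be particular to this set. The most copied tag lay at site 1 in 51 of the 73 genes (69.9%), beside 69.0% of all genes.

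The most copied genes that were not called lay on both sides of 0, and under the correction, another scaling or the most copied tag alone, Mrpl3, Mrpl9, Mrpl10, Mrpl20, Mrpl27, Mrpl34 and Mrps14 changed side. Mrpl27, the counterpart of L27 near the peptidyl transferase centre, had 536 and 585 copies (158 and 177 TPM), a log2 ratio of 0.16. Mrpl12, the counterpart of the stalk protein L7/L12, had 372 and 294 copies (110 and 89.0 TPM), a log2 ratio of -0.30 with an interval of -0.53 to -0.08. Mrpl9, the counterpart of L9, had 371 and 299 copies (110 and 90.5 TPM), a log2 ratio of -0.28. In the small subunit, Mrps11, the counterpart of S11, had 286 and 282 copies (84.4 and 85.4 TPM), a log2 ratio of 0.02. Mrps14, the counterpart of S14, had 200 and 206 copies (59.1 and 62.4 TPM), a log2 ratio of 0.08. Mrps25, a mitochondrion-specific protein, had 327 and 281 copies (96.6 and 85.1 TPM), a log2 ratio of -0.18. The intervals of Mrps11, Mrps14, Mrps25 and Mrpl27 included 0.

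Further abundant genes had log2 ratios of smaller size than the threshold in both directions. Mrpl58, a peptidyl-tRNA hydrolase that rescues stalled ribosomes, had 191 and 229 copies (56.4 and 69.3 TPM). Mrpl37, mitochondrion-specific, had 276 and 320 copies (81.5 and 96.9 TPM), and Mrpl53, also mitochondrion-specific, had 155 and 191 (45.8 and 57.8 TPM). Mrpl34 had 224 and 214 copies, Mrpl32 215 and 173, Mrpl20 202 and 201, and Mrpl3 191 and 192. These are counterparts of the bacterial proteins L34, L32, L20 and L3. Mrpl48, a mitochondrion-specific protein, had 172 and 151 copies. Mrpl10, Mrpl18 and Mrpl22, counterparts of L10, L18 and L22, had 145 and 152, 164 and 146, and 145 and 162. In the small subunit, Mrps16 (S16) had 165 and 141 copies, Mrps21 (S21) had 161 and 172, and Mrps34, mitochondrion-specific, had 143 and 166. Their log2 ratios ran from -0.28 in Mrpl32 to 0.34 in Mrpl53.

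**Figure D4:**
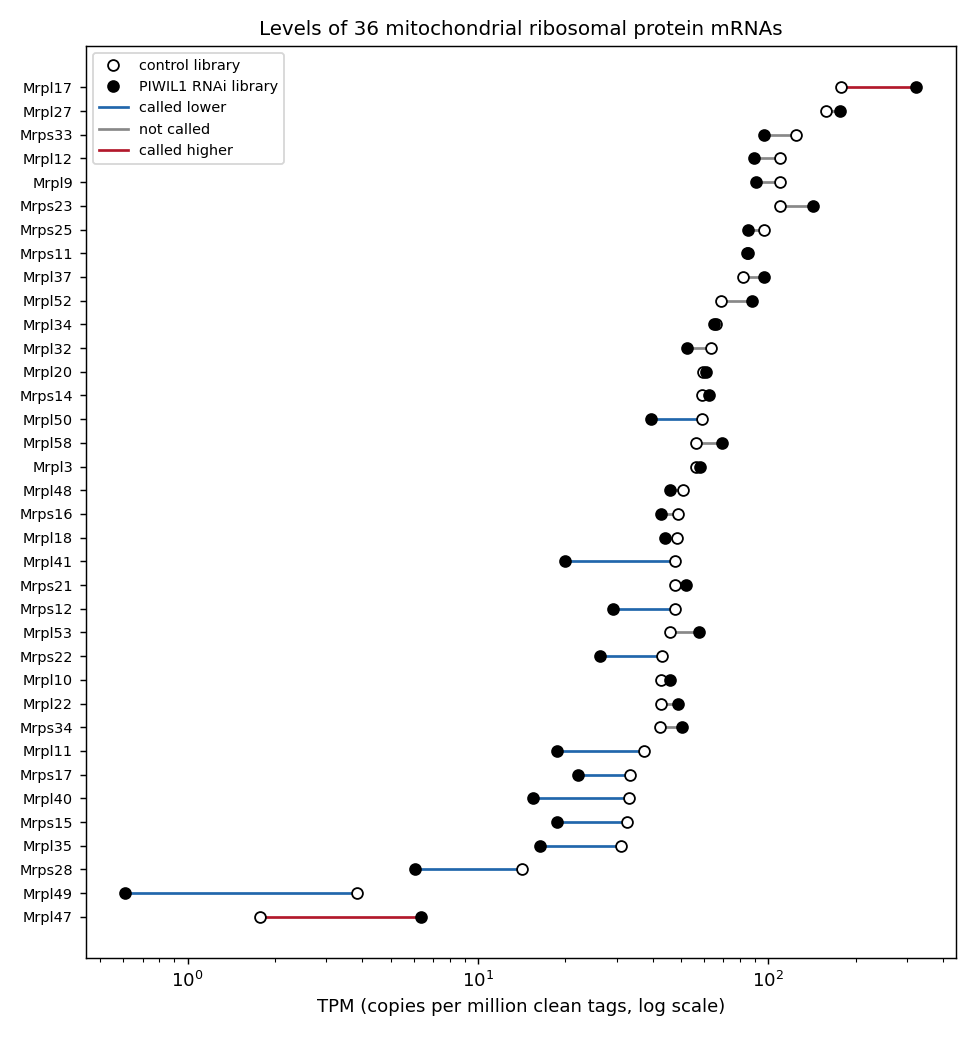
TPM on a log axis in the control library (open circles) and the RNAi library (filled circles) for the 36 genes that were called or were among the 25 most copied, ordered by the control level. Blue lines join the 11 genes called lower and red lines the 2 called higher, Mrpl17 at the top and Mrpl47 at the bottom.

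A further 5 genes passed the FDR but not the size threshold. The share of all genes that did so was not counted, so this count shows no excess over it. Mrps33, mitochondrion-specific, had 421 and 319 copies (124 and 96.6 TPM), a log2 ratio of -0.36 (adjusted p = 0.013, Fisher's exact test). Mrps23, mitochondrion-specific, had 370 and 469 copies (109 and 142 TPM), a log2 ratio of 0.38 (adjusted p = 7.89e-04, Fisher's exact test). Mrpl52 had 232 and 290 copies (68.5 and 87.8 TPM), a log2 ratio of 0.36 (adjusted p = 0.0191, Fisher's exact test). Mrpl4, the counterpart of L4, had 168 and 116 copies, a log2 ratio of -0.50 (adjusted p = 0.0462, Fisher's exact test), and Mrpl45 is described above. So 3 of the 5 were lower and 2 higher. At the other end of depth, 8 genes had fewer than 30 copies over both libraries, and their intervals were wide. Mrps10 had 3 and 11 copies and an interval of -0.01 to 4.39, Mrpl1 had 7 and 13, Mrpl43 had 2 and 6, and Mrpl15 had 4 and 2. The identifiers of Mrps27 had 11 and 9 and 5 and 4. Mrpl47 and Mrpl49, described above, are the other 2 of the 8. The intervals of the 6 identifiers that were not called included 0, so the depth here could not show a difference in them.

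By class, the 27 large-subunit genes with a bacterial counterpart held 2 called lower and 2 called higher (7.41% each), with a median log2 ratio of -0.02. The 21 large-subunit genes found only in mitochondria held 4 called lower (19.0%) and none higher, with a median of -0.15. The 15 small-subunit genes with a bacterial counterpart held 4 called lower (26.7%) and none higher, with a median of -0.25. The 10 small-subunit genes found only in mitochondria held 1 called lower (10%), with a median of -0.17. All genes gave 5.97% lower and 2.96% higher. After the tag-end correction the first class held none called lower and 1 higher (3.70%, median -0.04), and the second 5 lower (23.8%, -0.29). The third then held 2 lower (13.3%, -0.03) and the fourth 1 lower (10%, -0.03), beside 3.71% lower and 1.79% higher of all genes. The small subunit as a whole had a median of -0.19 and the large subunit -0.03, and after the correction these were -0.03 and -0.06. The order of the classes thus moved with the correction, and no difference between classes was tested.

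Of the other genes of mitochondrial translation, 56 were listed. Of these, 4 (7.14%) were called lower and 1 (1.79%) higher, near the 5.97% and 2.96% of all genes. After the tag-end correction 2 (3.57%) were called lower and 1 higher, beside 3.71% and 1.79% of all genes. Ptcd3, a small-subunit protein under another name, had 94 and 56 copies, a log2 ratio of -0.71 (adjusted p = 0.0353, Fisher's exact test). The other 4 mitoribosomal proteins under other names, Aurkaip1, Chchd1, Dap3 and Gadd45gip1, were not called. Of 5 genes of mitochondrial transcription, 2 were called lower. Tfam, which packages and transcribes mitochondrial DNA, had 120 and 64 copies, a log2 ratio of -0.87 (adjusted p = 0.00142, Fisher's exact test), with 75% of its copies on tags ending in TG or GT, and -0.40 after correction. Mterf1, a transcription termination factor, had 133 and 74 copies, a log2 ratio of -0.81 (adjusted p = 0.00188, Fisher's exact test), and -1.03 after correction. Among 12 mitochondrial aminoacyl-tRNA synthetases, Tars2 was called lower (78 and 41 copies, log2 ratio -0.89) and Hars2 higher (37 and 72 copies, log2 ratio 0.997). After correction Tars2 was at -0.60 and not called, and Hars2 was at 0.83 and still called. None of 11 translation factors and none of 23 assembly factors was called.

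Beside the mitochondrial ribosomal proteins, 6 of 73 cytosolic ribosomal protein genes (8.22%) were called lower and 2 (2.74%) higher. Their median log2 ratio was near 0 (-3.85e-04). The list of the respiratory chain and ATP synthase held 70 nuclear genes and none of the subunits made by the mitochondrial ribosome. Of these 70 genes, 7 (10%) were called lower, 2 (2.86%) higher. Their median was 0.04. All genes gave 5.97% lower and 2.96% higher, and those with at least 100 copies 8.46% and 4.62%. After the tag-end correction the cytosolic list held 3 called lower (4.11%) and 1 higher (1.37%). The respiratory chain list then held 2 lower (2.86%) and 3 higher (4.29%), beside 3.71% and 1.79% of all genes. Cytosolic ribosomal protein genes had a median of 4308 copies over both libraries and the mitochondrial ones 233. The power to make a call therefore differed between the lists, and the difference between them was not tested.

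The promoters were searched for the letters of 3 motifs, which the choice of genes did not use. RefSeq promoters of the GRCr8 build, from 250 bases before to 50 bases after the start, matched 58 of the 72 symbols by name. The letters CGCATGCG, from the centre of the NRF1 motif, were found on either strand in 10.3% of the 58 and in 1.81% of all 27457 promoters. NRF1 is a transcription factor known for nuclear genes of mitochondria. The ETS motif CCGGAAG was in 20 of the 58 (34.5%) and in 9.22% of all, and AAGATGGC, the YY1 motif, in 13 (22.4%) and in 3.44% of all. At least 1 of the 3 was in 31 of the 58 (53.4%) and in 13.3% of all promoters. Of the 7 matched genes called lower, 2 held the YY1 letters and none held the others. Matches are a description of letters in these windows.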

How the data were processed

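The authors deposited, per gene and library, the tag count (the sum of the copies of its tags, not normalized), the TPM, which is a CPM of tags scaled by the authors to all clean tags (about 3386865 and 3303360), and each tag's sequence and copies. The lowest copy number of a tag was 2. The labels name the build rn4, and the tag-matching program is not given in the sources used here. No column of another sample was present.

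Symbols came from RefSeq accessions. These genes, the gene lists and the tests were chosen with earlier results of these data known. Fisher's exact test, two-sided, set a gene's copies against all other tags on genes, with Benjamini-Hochberg adjustment over 9894 genes. Values are given in full for called genes and the 25 with most copies. Tags and genes named for opposite tag directions, for a call made by the correction alone, for passing the FDR alone or for few copies were chosen after their values were seen.

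The tag-end correction put each tag in a class, given by its final 2 bases or by the length of a final run of 3 or more A. Within 1 of 2 parts of the genes, the median log2 ratio of a class was taken from tags of at least 20 copies, after adding 0.5 copies, and it was removed from tags in the other part. Alternatives were edgeR's TMM factors (1.02 and 0.976), DESeq2's size factors (1.04 and 0.959), clean tags as totals, tags left out by end, the most copied tag only, copy minimums, added copies, stricter thresholds, naming by accession only or summed per symbol, and the exact test of edgeR at an assumed coefficient of variation of 0.1, 0.2 or 0.4. The scripts were tested on simulated data. Tools were edgeR 4.0.16 and DESeq2 1.42.0 in R 4.3.3, and SciPy 1.17.1, pandas 2.3.3, Matplotlib 3.10.9 and NumPy 2.4.6 in Python 3.11.15. No coordinates are given, because the builds of the labels and the reference differ.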

Additional observations from a re-analysis of the deposited data

How the results depend on the processing

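No paired analysis was possible because each group had 1 library, and no library could be left out. Against 11 genes called lower, 6 were called without tags ending in TG or GT (397 of 9734 genes, 4.08%), 4 at a log2 threshold of 1 (2.65% of all genes), 3 at an FDR of 0.001 (2.60%), and 2, 0 and 0 by edgeR's exact test with an assumed coefficient of variation of 0.1, 0.2 and 0.4, which called 170, 2 and 0 of all genes. Against 2 called higher, 1 was called after the tag-end correction (1.79% of all genes), without tags ending in 8 or more A (2.12%), with at least 10 copies in both libraries (3.72%), with 1 copy put back (2.44%), at a log2 threshold of 1 (1.48%), at an FDR of 0.001 (1.65%), at a coefficient of 0.1 (1.15%) and, in an alternative chosen after seeing the data, with at least 100 copies in all (4.82%), and 0 at 0.2 (15 of all genes) and 0.4 (0 of all genes). At an unadjusted p under 0.05 edgeR's exact test gave 5 lower and 2 higher at 0.2, and 0 of each at 0.4. The share of all genes at that unadjusted p was not counted, so these counts show no excess over it. At 0.2 the smallest FDR among these genes was 0.624.

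The median log2 ratio, -0.08 as reported, was 0.0102 with TMM and 7.17e-04 with DESeq2's factors, which moved the median of all genes by 0.094 and 0.085. It was -0.13 without tags ending in 8 or more A and -0.0241 without those ending in TG or GT. In alternatives chosen after seeing the data, the summed log2 ratio was -0.10 without Mrpl17, -0.0787 after the tag-end correction and -0.10 without tags ending in 8 or more A.

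The log2 ratio of Mrpl17 turned to -0.31 after the tag-end correction and -0.36 without tags ending in 8 or more A. That of Mrpl40 turned to 0.45 without tags ending in TG or GT, which held 87.1% of its copies. None of its remaining tags had more than 7 copies over both libraries, so this value rests on few copies. Genes that were not called changed side after the correction (Mrpl9 to 0.0152, Mrpl10 to -0.11, Mrpl20 to -0.11, Mrpl27 to -0.0419 and Mrps14 to -0.0241), with the most copied tag only (Mrpl3 to -0.058, Mrpl10 to -0.00749 and Mrpl34 to 0.11), and with TMM or DESeq2's factors (Mrpl34 to 0.0646 and 0.0551). Of the other values of named genes under the alternatives, 325 kept their direction and side of the threshold and 55 lost the call. A further 2 gained it (Mrpl12 at -0.60 and Mrps21 at 0.80, with the most copied tag only). Many of the 325 were fixed in advance. EdgeR's exact test reused the log2 ratio as reported, and only Mrpl17 had tags ending in 8 or more A. Genes that were not called could therefore not change under these alternatives. The count left out alternatives such as the stricter thresholds, the copy minimums and the naming, under which further calls were lost. With TMM or DESeq2's factors Mrpl50 and Mrps17 were no longer called. The assumed coefficients of variation were not estimated from these data, and the variation between cultures is unknown.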

Other observations

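In 3 of the 42 genes with at least 2 tags of 20 or more copies, tags lay beyond 0 in opposite directions by their exact intervals. The share of all genes with such tags was not counted, so this is not shown to be particular to these genes. The clearest of the 3 was Mrps21, the counterpart of the bacterial protein S21. Its gene total of 161 and 172 copies gave a log2 ratio of 0.13. Its tags are shown with their last 2 bases in capitals.
Mrps21 site 1: catggctgggctgctaaggCT
Mrps21 site 3: catgccggaggatctacaaCA
The tag at site 1 had 74 copies in the control and 126 in the RNAi library, a log2 ratio of 0.80 with an interval of 0.38 to 1.24. The tag at site 3 had 81 and 39, a log2 ratio of -1.02 with an interval of -1.61 to -0.45. Tags ending in CT had a median log2 ratio of -0.24 over all genes and those ending in CA one of 0.16, so that each tag of Mrps21 lay on the other side of 0 from its class.

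The others were Mrpl17, described above, and Mrpl27. The site 1 tag of Mrpl27 had 431 and 516 copies, a log2 ratio of 0.30 with an interval of 0.11 to 0.48, and its site 2 tag had 29 and 12, a log2 ratio of -1.24 with an interval of -2.34 to -0.22. In Mrpl52, a mitochondrion-specific protein, the tag at site 4 had 13 and 43 copies, a log2 ratio of 1.76 with an interval of 0.84 to 2.78, while that at site 3 had 77 and 68. In Mrpl53 the tag at site 2 had 49 and 89 copies and those at sites 1 and 3 had 69 and 71 and 37 and 31. In Mrpl12 the tag at site 4 had 239 and 154 copies, a log2 ratio of -0.60, and that at site 3 had 100 and 106. The Mrpl12 tag at site 4 and the Mrpl52 tag at site 3 end in GG, a class with a median log2 ratio of -0.55 over all genes. For these genes the gene total joined tags with different ratios. Whether such tags belong to different transcripts was not tested.

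Of the 21 pairs of tags listed at the same site of one of these genes, most set a tag beside a second one with 5 or fewer copies in all that differed from it at 1 base. The A-run pair of Mrpl17 and the site 3 tags of Mrps25 (9 and 12 copies against 10 and 9, differing by G19T) were exceptions with more copies on the second tag.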
